A study of Mus musculus with 8 samples.

Results

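The genes described here are 9 genes of fatty acid oxidation and of the response to peroxisome proliferator-activated receptors (PPARs): Cpt1a, Hadha, Hadhb, Acadm, Acadl, Acadvl, Pdk4, Angptl4 and Plin2. They were taken by gene name from a table of read counts, where each name stood on 1 row, and they are 9 of 55247 rows. The table covers 8 bulk RNA-seq libraries, each from the back skin of a female wild-type C57BL/6J mouse of 8 weeks that carried a subcutaneous EL4 tumor. EL4 is a T-cell lymphoma line of the mouse. All mice were inoculated on Day 0 with 100 μL of EL4 cells at 2000000 cells/mL. On Day 14, the 4 bexarotene mice received 0.1 mg of bexarotene into the peritoneum and the 4 vehicle mice received the DMSO and corn oil vehicle. The skin with its tumor was taken on Day 16. Each library therefore mixes RNA of the lymphoma, of immune cells and of skin. In such bulk samples fewer cells of a type and less RNA per cell cannot be told apart.

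Long-chain fatty acids are coupled to carnitine by Cpt1a, the gatekeeper of their entry into mitochondria, and are then shortened there in cycles. The acyl-CoA dehydrogenases (Acadvl for very long, Acadl for long and Acadm for medium chains) open each cycle, and the trifunctional protein, built from the Hadha and Hadhb subunits, carries out the remaining steps on long chains. PPARs bind DNA as heterodimers with the retinoid X receptors (RXRs), for which bexarotene is a ligand, and Cpt1a, Pdk4, Angptl4 and Plin2 are well-known PPAR-responsive genes in liver, muscle and fat. PPAR-RXR dimers favor pairs of AGGTCA elements with 1 base between them.

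The promoters are shown first, searched for the single AGGTCA element and for the pair that PPAR-RXR dimers favor. A single element is only a part of that pair. RefSeq promoter windows of 300 bases (250 before to 50 after the start, GRCm38.p6) were matched for 8 of the 9 genes, all but Angptl4. An AGGTCA element, searched on both strands, was present in 4 of these 8 windows, those of Cpt1a, Acadm, Acadvl and Plin2, and in 16.26% of all 32851 windows. The stretches of 30 bases around the 4 elements, located in GRCm39 and read in the direction of each gene, are given with the element in capitals, which reads TGACCT where it lies on the opposite strand.
Cpt1a, chr19:3373195-3373224, plus strand: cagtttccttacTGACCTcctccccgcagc
Acadm, chr3:153650512-153650541, minus strand: ctggaaagaacgTGACCTtcgggctccggt
Acadvl, chr11:69906324-69906353, minus strand: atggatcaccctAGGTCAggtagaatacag
Plin2, chr4:86588497-86588526, minus strand: tttcaggaccccTGACCTaagtcagacagc
The first base of the element lay at position -94 in Cpt1a, -249 in Acadm, -87 in Acadvl and -218 in Plin2, counted from the RefSeq start. The Cpt1a element is not upstream of the gene as counted. It lies inside the span of Cpt1a in the table, which begins at 3372334. The paired element AGGTCANAGGTCA was in none of the 8 windows and in 0.03957% of all windows. Its looser form AGGTCNNAGGTCN, which contains the first pattern, was also in none of the 8 and in 0.137% of all. These matches describe letters and not bound sites.

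Counts per library ranged from 8518428 to 18340980 in bexarotene mice and from 16196852 to 24020342 in vehicle mice, but only 4.02% to 15.7% of them with bexarotene and 9.55% to 19.0% with vehicle lay in protein-coding genes. The 18S ribosomal RNA gene Rn18s alone held 54.8% to 58.6% of the counts with bexarotene and 50.8% to 59.8% with vehicle. The 9 genes together had 87 to 1393 counts in bexarotene mice and 861 to 2236 in vehicle mice. Bexarotene 2 (87) and Bexarotene 1 (283) were the thinnest libraries, and in Bexarotene 2 a single count was worth 0.422 CPM (counts per 1000000, scaled by TMM), against 0.0199 CPM in Vehicle 1. T lineage markers such as Cd3e and Thy1 were abundant in all libraries, with a summed level of 179 to 249 CPM in bexarotene mice and 196 to 235 CPM in vehicle mice. The skin part of the samples varied far more. Keratinocyte markers summed to 41.8 to 139.9 CPM in bexarotene mice and to 1.37 to 375 CPM in vehicle mice, and 4 of the 7 markers were at 0 in Vehicle 4. Skeletal muscle markers summed to 9.71 to 203 CPM in bexarotene mice and to 36.9 to 119.7 CPM in vehicle mice.

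None of the 9 genes passed the test of bexarotene against vehicle. Of the 8 that passed the filter on low counts (all but Pdk4), 0 had an adjusted p under 0.05 by edgeR's quasi-likelihood test, beside 0 of 11616 genes tested (0%), and 0 had an unadjusted p under 0.05, beside 428 genes (3.68%, of which 2.38% higher and 1.3% lower with bexarotene). The groups overlapped in all 9 genes, whereas they did not overlap in 2.83% of tested genes. By fitted log2 fold change 6 of the 8 were higher and 2 were lower with bexarotene, and 46.5% of all tested genes were higher. These directions are those of the main fit, and some changed sign with another filter or with libraries left out. With total counts alone, where the median of all genes moved to -0.66, all 8 were negative. Their median log2 fold change was 0.06, beside -0.03 for all tested genes. DESeq2 called 3 rows of the whole table, the processed pseudogenes Gm46546 and Gm5963 and an unnamed region, and limma-voom called 0. None of these is among the 9.

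**Figure D1:**
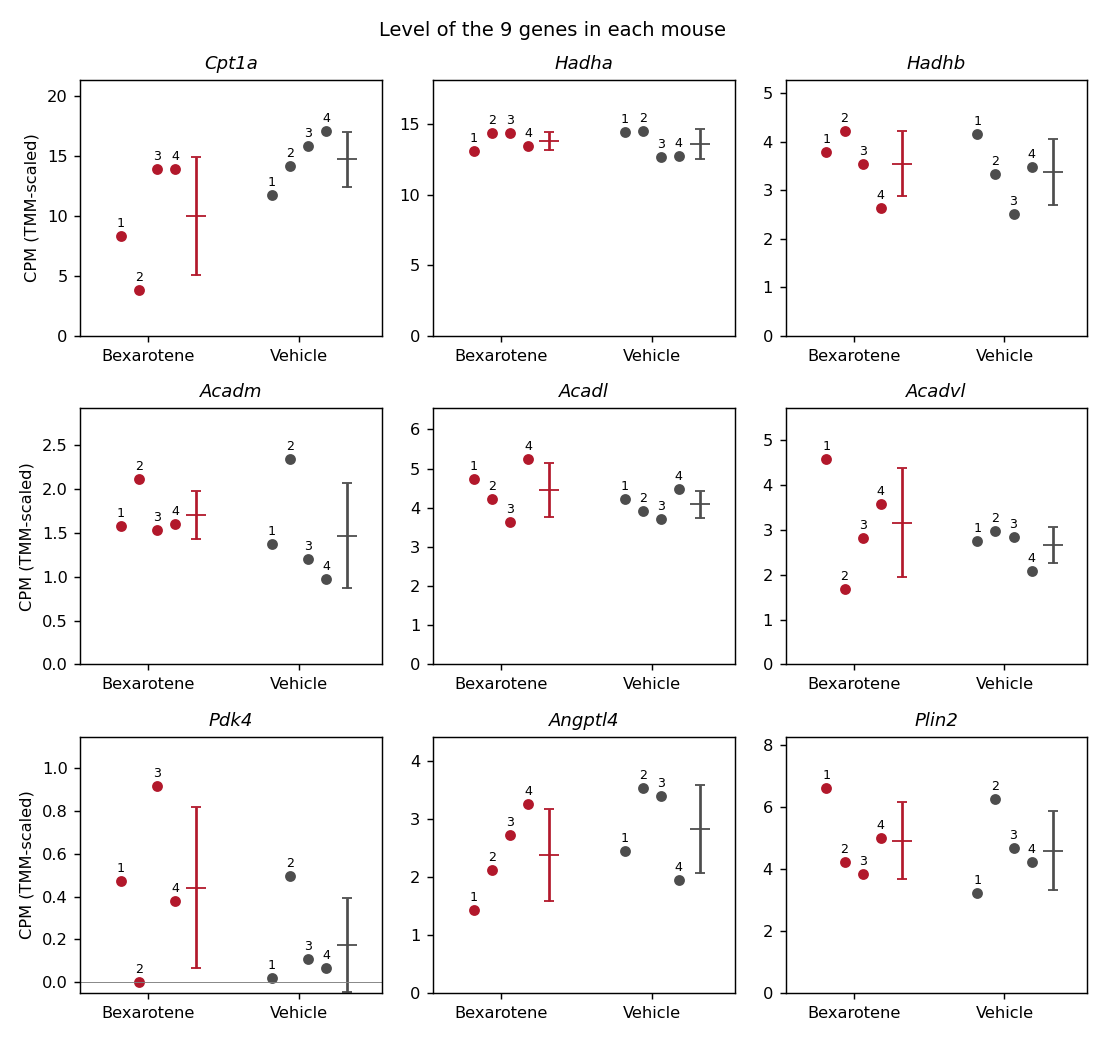
TMM-scaled CPM of each of the 9 genes in each mouse, with the replicate number above its point and the mean and SD (n = 4 each) beside the points, for bexarotene mice (red) and vehicle mice (grey). The groups overlap in all 9 panels, and the lowest Cpt1a values are those of Bexarotene 2 and Bexarotene 1.

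Cpt1a (chr19:3372334-3435733 in GRCm39, plus strand) had the largest difference among the tested genes of the set, and it was downward. It stood at 8.36, 3.80, 14.0 and 13.9 CPM in Bexarotene 1 to 4, against 11.7, 14.2, 15.9 and 17.1 CPM in Vehicle 1 to 4. All 4 bexarotene mice were below the vehicle median, yet Bexarotene 3 and 4 were above Vehicle 1. The means were 10.01 ± 4.91 CPM with bexarotene and 14.7 ± 2.33 CPM with vehicle (SD, n = 4 each), and the log2 fold change was -0.46 (95% interval, -1.12 to 0.19; edgeR, adjusted p = 0.976). The difference was smaller without the thin libraries, with a log2 fold change of -0.06 without Bexarotene 1 and 2 and of -0.27 without Bexarotene 2 alone. It was larger without either of the other bexarotene libraries, at -0.62 without Bexarotene 3 and -0.62 without Bexarotene 4. The value of Bexarotene 2 came from 9 counts (95% Poisson interval, 1.74 to 7.22 CPM) and that of Bexarotene 1 from 53 counts (6.26 to 10.9 CPM). These intervals cover counting error only and lie below the 11.7 CPM of Vehicle 1. The interval of Vehicle 1 itself was 10.8 to 12.7 CPM, which overlaps that of Bexarotene 1. Protein-coding genes held 4.02% of the counts of Bexarotene 2 and 6.35% of those of Bexarotene 1. The same 2 libraries had the highest summed levels of fibroblast markers of the 8. These were 1688 CPM in Bexarotene 2 and 883 CPM in Bexarotene 1, against 267 to 791 CPM in vehicle mice. Collagen genes made up most of that sum, with Col1a1 at a mean of 546 CPM with bexarotene and 248 CPM with vehicle. Of the 7 fibroblast markers, 3 were higher with bexarotene, all collagen genes. The other 4 were lower, among them Dcn (15.5 CPM with bexarotene and 24.3 CPM with vehicle). Bexarotene 2 had the lowest level of muscle markers (9.71 CPM). The part of these measures in the low Cpt1a values was not tested. In GENCODE vM39 an antisense transcript, Gm58963, overlaps 750 exonic bases of Cpt1a, and whether the counting used strand was not known.

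Of the trifunctional protein genes, Hadha was also the steadiest gene of the set. Hadha (chr5:30323302-30360160, minus strand), the alpha subunit with the hydratase and dehydrogenase activities, stood at 13.1, 14.4, 14.4 and 13.4 CPM in Bexarotene 1 to 4, against 14.5, 14.5, 12.7 and 12.7 CPM in Vehicle 1 to 4. The highest mouse exceeded the lowest by only 1.15-fold. Its log2 fold change was 0.02 (95% interval, -0.29 to 0.34; edgeR, adjusted p = 0.9999), an interval that leaves room for a change of up to 0.816-fold downward or 1.26-fold upward. Hadha varied by 5.91% over the 8 libraries (coefficient of variation), less than the 8.64% that counting alone would give at these depths, and only 0.0775% of tested genes had a smaller SD of log2 CPM.

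Hadhb (chr5:30360246-30389591, plus strand), the beta subunit with the thiolase activity, stood at 3.79, 4.22, 3.53 and 2.64 CPM in Bexarotene 1 to 4, against 4.17, 3.33, 2.51 and 3.48 CPM in Vehicle 1 to 4. Bexarotene 4 and Vehicle 3 were the lowest of their groups. The log2 fold change was 0.0096 (95% interval, -0.50 to 0.52; edgeR, adjusted p = 0.9999). The coefficient of variation of Hadhb was 18.2%, beside 17.2% from counting alone.

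Hadha and Hadhb lie head to head. The 48 bases shown, read in the direction of Hadhb, lie between the starts of the 2 genes in the table and are covered by no annotated exon (GRCm39, GENCODE vM39).
Hadha to Hadhb, chr5:30360188-30360235: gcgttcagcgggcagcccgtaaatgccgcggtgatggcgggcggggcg
This stretch is 75% G and C, and the promoter windows of both genes held no AGGTCA element. The ratio of Hadha to Hadhb CPM within a mouse was 3.46, 3.40, 4.07 and 5.09 in Bexarotene 1 to 4, against 3.47, 4.36, 5.04 and 3.65 in Vehicle 1 to 4. It averaged 4.00 ± 0.784 with bexarotene and 4.13 ± 0.720 with vehicle (SD, n = 4 each; two-sided exact permutation test on the log2 ratio, p = 0.743, adjusted p = 0.8286 over 4 proportions). Per kb of annotated exon, the vehicle means were 1.56 CPM for Hadha and 0.453 CPM for Hadhb. In GENCODE vM39 the transcripts of the pair overlap by 984 bases on opposite strands. In the table that was counted, Hadha reaches only to 30360160 and Hadhb begins at 30360246, so their spans share no bases. Hadha overlaps the antisense gene Garem2 in GENCODE vM39 as well.

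The 3 acyl-CoA dehydrogenase genes all had small positive log2 fold changes with TMM scaling and negative ones with total counts alone, and none passed the test. Acadvl (chr11:69901009-69906237, minus strand), which acts on very long chains, stood at 4.57, 1.69, 2.82 and 3.58 CPM in Bexarotene 1 to 4, against 2.76, 2.98, 2.84 and 2.08 CPM in Vehicle 1 to 4. Bexarotene mice held both the highest and the lowest value. The log2 fold change was 0.31 (95% interval, -0.28 to 0.89; edgeR, adjusted p = 0.976), and without Bexarotene 1 it was 0.12. In GENCODE vM39 Acadvl shares exonic bases with the antisense gene Dvl2 (1603 bases).

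Acadl (chr1:66869998-66902436, minus strand), which acts on long chains, stood at 4.73, 4.22, 3.64 and 5.24 CPM in Bexarotene 1 to 4, against 4.23, 3.93, 3.71 and 4.49 CPM in Vehicle 1 to 4. Bexarotene 4 was the highest of the 8 and Bexarotene 3 the lowest. The log2 fold change was 0.12 (95% interval, -0.30 to 0.54; edgeR, adjusted p = 0.997), and it was 0.038 without Bexarotene 4 and 0.26 without Bexarotene 3. Like Hadha, Acadl varied less (12.6%) than counting alone would give (15.5%).

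Acadm (chr3:153627994-153650269, minus strand), which acts on medium chains, stood at 1.58, 2.11, 1.53 and 1.60 CPM in Bexarotene 1 to 4, against 1.37, 2.34, 1.20 and 0.971 CPM in Vehicle 1 to 4. All 4 bexarotene mice were above the vehicle median, but the highest value of all was that of Vehicle 2. The log2 fold change was 0.17 (95% interval, -0.56 to 0.89; edgeR, adjusted p = 0.9999). It was 0.46 without Vehicle 2 and 0.023 without Vehicle 4. Vehicle 2 also had the highest summed levels of keratinocyte (375 CPM), macrophage (100.9 CPM) and adipocyte markers (12.4 CPM). Vehicle 4 had the lowest (1.37, 28.4 and 1.11 CPM). In Bexarotene 2, with the next highest Acadm value, these sums were 41.8, 43.9 and 2.53 CPM. The part of these markers in the Acadm values was not tested.

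**Figure D2:**
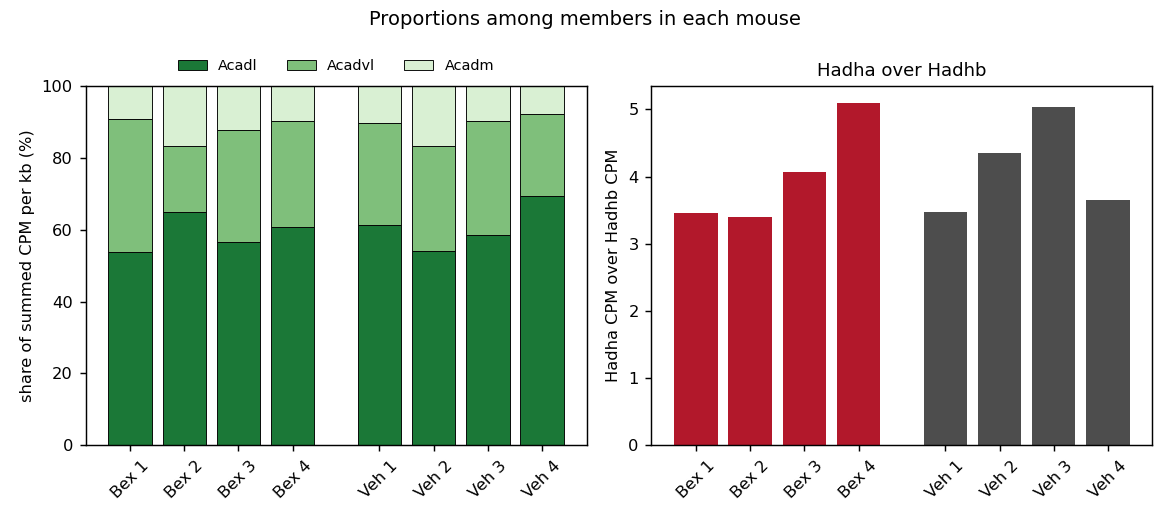
Left, share of Acadl, Acadvl and Acadm in their summed CPM per kb (percent) in each mouse. Right, ratio of Hadha CPM to Hadhb CPM in each mouse (bexarotene red, vehicle grey). Acadl holds 53.9% to 69.5% in all mice, and the ratio lies between 3.40 and 5.09 with both treatments.

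Taken per kb of annotated exon, Acadl was the most abundant of the 3 dehydrogenase genes in every mouse. It held 59.1% ± 4.86 of their summed CPM per kb with bexarotene and 60.9% ± 6.43 with vehicle (SD, n = 4 each; two-sided exact permutation test, p = 0.657). Acadvl held 29.0% ± 7.74 with bexarotene and 28.1% ± 3.77 with vehicle (exact permutation, p = 0.8286). Acadm held 11.9% ± 3.43 with bexarotene and 11.03% ± 3.82 with vehicle (exact permutation, p = 0.743), with the highest shares in Bexarotene 2 (16.6%) and Vehicle 2 (16.5%). The adjusted p was 0.8286 for each of these shares. The smallest p that 4 against 4 mice allow is 0.0286.

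Pdk4 (chr6:5483351-5496309, minus strand), the kinase that switches off pyruvate dehydrogenase when fatty acids are burned, was the only gene of the 9 below the filter. It had 3, 0, 27 and 8 counts in Bexarotene 1 to 4, against 1, 10, 2 and 2 counts in Vehicle 1 to 4. Most of the bexarotene counts came from 1 mouse, and Vehicle 2 had more than Bexarotene 1, 2 and 4. In CPM these were 0.473, 0, 0.918 and 0.377 with bexarotene and 0.0199, 0.497, 0.109 and 0.0670 with vehicle. The 0 of Bexarotene 2 allows a level of up to 1.27 CPM (3 counts), above every other mouse, so that this library says nothing of Pdk4. In the fit without a filter the log2 fold change was 1.74 (95% interval, 0.0034 to 3.48; edgeR, adjusted p = 0.832), with an unadjusted p under 0.05 that did not survive adjustment. The exact permutation test of log2(CPM + 1) gave p = 0.371. Without Bexarotene 3 the log2 fold change was 1.07, without Vehicle 1 it was 1.27, and without Vehicle 2 it was 3.10 (adjusted p = 0.304). Bexarotene 3 also had the highest summed level of skeletal muscle markers of the 8 mice (203 CPM) and Vehicle 2 the next (119.7 CPM), and their part in the Pdk4 counts was not tested.

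Angptl4 (chr17:33992724-34000804, minus strand), a secreted inhibitor of lipoprotein lipase, stood at 1.42, 2.11, 2.72 and 3.25 CPM in Bexarotene 1 to 4, against 2.44, 3.53, 3.39 and 1.94 CPM in Vehicle 1 to 4. Only Bexarotene 4 was above the vehicle median. The log2 fold change was -0.16 (95% interval, -0.82 to 0.50; edgeR, adjusted p = 0.9999), and it was -0.0024 without Bexarotene 1 and -0.36 without Bexarotene 4.

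Plin2 (chr4:86566623-86588297, minus strand), which coats lipid droplets, stood at 6.63, 4.22, 3.84 and 4.999 CPM in Bexarotene 1 to 4, against 3.22, 6.27, 4.70 and 4.22 CPM in Vehicle 1 to 4. Bexarotene 1 was the highest and Vehicle 1 the lowest of the 8. The log2 fold change was 0.10 (95% interval, -0.45 to 0.66; edgeR, adjusted p = 0.9999), and it was -0.067 without Bexarotene 1 and 0.29 without Vehicle 2.

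**Figure D3:**
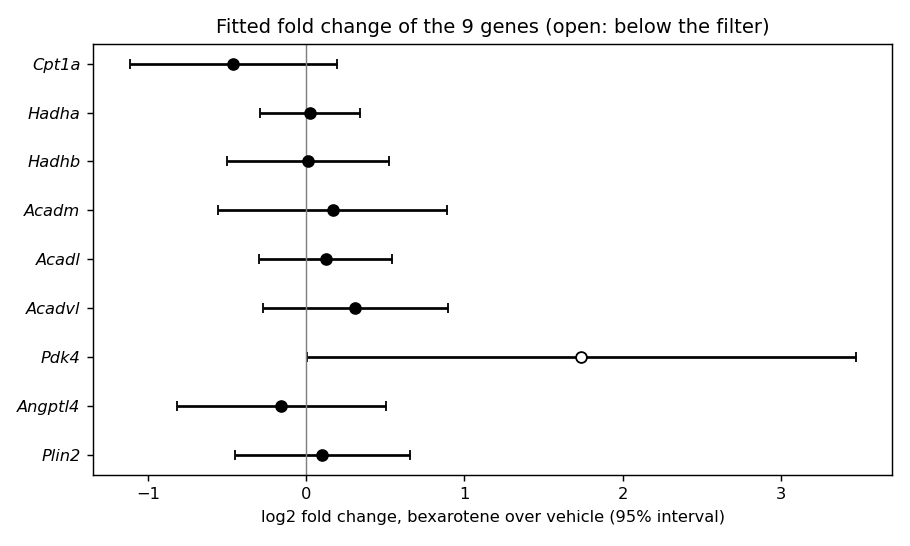
Fitted log2 fold change of bexarotene over vehicle with its 95% interval for the 9 genes, from edgeR. Filled points passed the filter on low counts and have intervals that cross 0. The open point is Pdk4 from the fit without a filter, with an interval of 0.0034 to 3.48 before adjustment.

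Tested mouse by mouse instead of in the fit, the log2(CPM + 1) values gave no calls either, but this test could hardly give any. Its smallest possible p of 0.0286 falls under 0.05 after adjustment only if most of the 9 genes reach it. The two-sided exact permutation p over the 9 genes ran from 0.143 for Cpt1a to 0.686 for Plin2, with an adjusted p of 0.686 for each. The intervals above set what these libraries could have missed. For Acadl the 95% interval of the fold runs from 0.815 to 1.46, for Cpt1a from 0.461 to 1.14, and for Acadm from 0.679 to 1.85. A p that misses the threshold does not show that the groups were alike.

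Per kb of annotated exon, the order of the genes in bexarotene mice was Acadl (2.22 ± 0.342 CPM per kb), Hadha (1.58 ± 0.0746), Cpt1a (1.31 ± 0.642), Plin2 (1.19 ± 0.297), Acadvl (1.12 ± 0.431), Angptl4 (0.546 ± 0.182), Hadhb (0.476 ± 0.0896), Acadm (0.436 ± 0.0696) and Pdk4 (0.126 ± 0.107; SD, n = 4). In vehicle mice Acadl (2.04 ± 0.169 CPM per kb) was followed by Cpt1a (1.93 ± 0.304), Hadha (1.56 ± 0.119), Plin2 (1.11 ± 0.306) and Acadvl (0.943 ± 0.143). Among the bexarotene mice Cpt1a was below Hadha in Bexarotene 1 and 2 (1.09 and 0.497 CPM per kb of Cpt1a) and above it in Bexarotene 3 and 4 (1.83 and 1.82), and the means of the 2 genes in bexarotene mice differed by less than the SD of Cpt1a. In that group Plin2 and Acadvl, and likewise Hadhb and Acadm, differed by less than the SD of either gene. The lengths are those of the table, which join all annotated exons of a gene and so include transcripts that may not be expressed here.

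The genes differed in how much they varied over the 8 mice, beside the variation that counting alone would give. Hadha, Hadhb, Acadl and Acadm (28.3%, beside 25.4% from counting alone) varied about as much as counting alone would give. Cpt1a varied by 35.2% beside 9.09%, Acadvl by 30.3% beside 18.7%, Angptl4 by 29.1% beside 19.8%, Plin2 by 24.6% beside 14.7% and Pdk4 by 104% beside 57.7%. Across the 8 libraries, the pairs of the set were linked only loosely. Pearson's r of log2 CPM was 0.71 for Hadha and Acadm, 0.57 for Acadvl and Plin2, 0.55 for Hadha and Hadhb, -0.61 for Cpt1a and Hadhb and -0.64 for Hadhb and Angptl4, a description over 8 libraries that share their depth and tissue makeup.

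**Figure D4:**
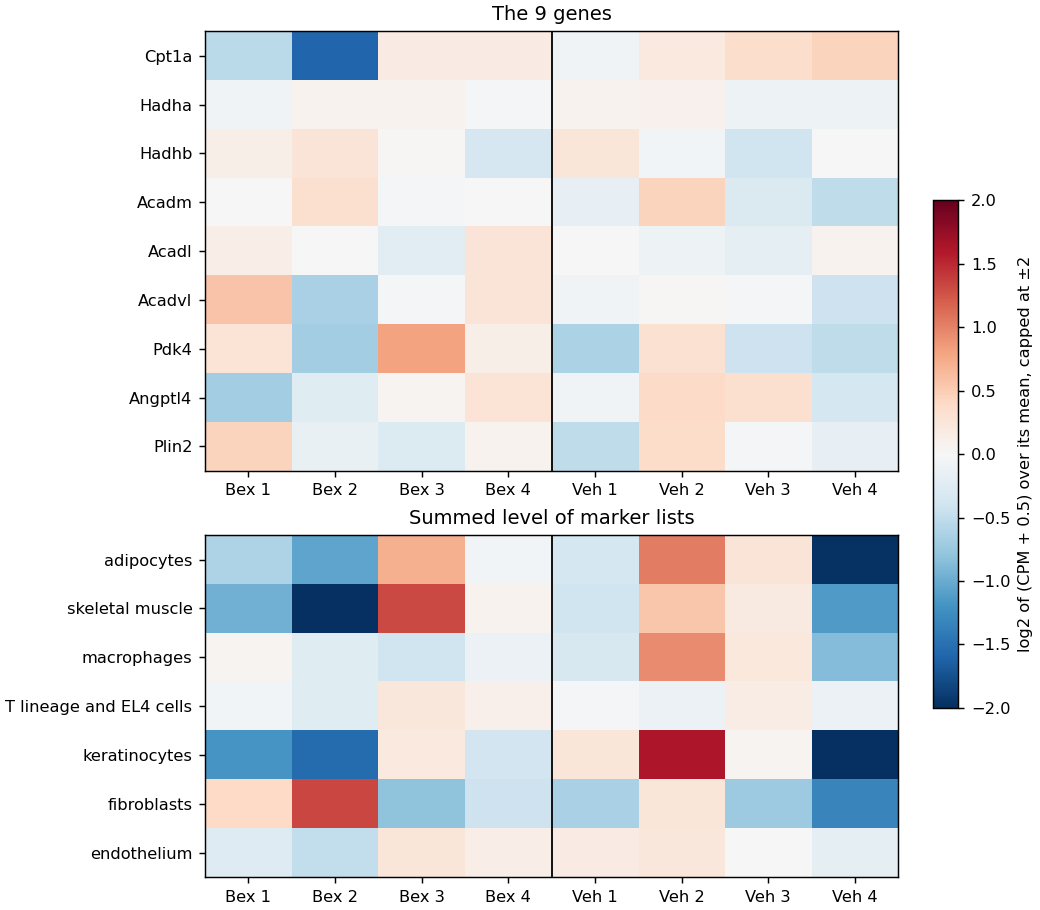
Colour map of log2 of CPM plus 0.5 relative to its mean over the 8 libraries (capped at 2 in either direction), for the 9 genes above and for the summed level of 7 marker lists below, with bexarotene mice left of the line and vehicle mice right of it. The marker lists of skin and muscle span a wider range than the 9 genes, and Vehicle 4 is lowest for keratinocytes (1.37 CPM) and adipocytes (1.11 CPM).

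The genes closest in pattern to each of the 8 tested genes were sought among 2145 named genes. For Cpt1a they were Eif3h, a subunit of a translation initiation factor (r = 0.996 over 8 libraries), Rpn2, a subunit of the oligosaccharyltransferase (r = 0.985), and Rps24, a ribosomal protein (r = 0.984). For Angptl4 they were Supt5, a transcription elongation factor (r = 0.948), Zmiz2 (r = 0.942) and Nacc1 (r = 0.930). For Plin2 they were Lgals3bp (r = 0.939), the glycolytic enzyme Aldoa (r = 0.898) and Atp6ap1 (r = 0.884). For Acadvl they were Fkbp5, a glucocorticoid-induced chaperone partner (r = 0.948), P4hb (r = 0.874) and Add1 (r = 0.864). None of the closest genes belonged to the lists of fatty acid metabolism. With so few libraries such values are a description of shared level and depth.

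Hadha was closest to Txndc5 (r = 0.959), Tchh (r = 0.942) and Krt71 (r = 0.935), the last 2 being genes of the hair follicle inner root sheath. Hadhb was closest to Tbl1xr1 (r = 0.932), Kdm5a (r = 0.882) and Etv3 (r = 0.842). Acadm was closest to the collagen gene Col5a1 (r = 0.944), Reep5 (r = 0.937) and Stat3 (r = 0.932), and Acadl to Prdx6 (r = 0.928), Rack1 (r = 0.880) and Nefh (r = 0.850). Hadha, Hadhb, Acadm and Acadl varied about as much as counting alone would give, so these r values may describe counting noise.

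No other gene of the pathway passed the test either. Of 99 other genes of fatty acid metabolism and PPAR-RXR signaling in 10 lists, 71 were tested. With bexarotene 38 were higher and 33 lower under TMM scaling, and 0 were called by edgeR. There were 3 at an unadjusted p under 0.05 (Acads, Rxrb and Scd2), beside 3.68% of all tested genes. That count was 0 without Bexarotene 1 and 0 without Bexarotene 2, and 1 to 4 without any other single library. Their median log2 fold change was 0.04. The middle of all tested genes spanned -0.24 to 0.19 (quartiles).

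In fatty acid activation and the carnitine shuttle, 5 of 8 tested genes were higher and 3 lower. Slc25a20, the carnitine-acylcarnitine translocase that acts after Cpt1a, was at 1.27 ± 0.392 CPM with bexarotene and 1.93 ± 0.242 CPM with vehicle (SD, n = 4 each, log2 fold change -0.54; edgeR, adjusted p = 0.976). The acyl-CoA synthetase Acsl5 was at 12.3 ± 0.785 CPM with bexarotene and 10.2 ± 0.908 CPM with vehicle (log2 fold change 0.27), and Acsl4 at 15.8 ± 2.57 CPM with bexarotene and 15.3 ± 3.62 CPM with vehicle. Cpt1b, the muscle form of Cpt1, had 0 counts in bexarotene mice and 1 in vehicle mice. Cpt1c, the brain form, had 8 counts in bexarotene mice and 25 in vehicle mice, so that Cpt1a held nearly all counted Cpt1 reads. Whether reads of Cpt1b were left out of the counting at overlapping genes was not checked.

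In mitochondrial beta-oxidation, 4 of 12 tested genes were higher and 8 lower. Acads, the dehydrogenase for short chains, was at 4.05 ± 1.39 CPM with bexarotene and 2.59 ± 0.274 CPM with vehicle (SD, n = 4 each, log2 fold change 0.61; edgeR, adjusted p = 0.976). The thiolase Acaa2 was at 3.94 ± 0.501 CPM with bexarotene and 2.94 ± 0.382 CPM with vehicle (log2 fold change 0.38), and Hadh, the dehydrogenase for shorter chains, at 5.58 ± 0.384 CPM with bexarotene and 5.05 ± 0.616 CPM with vehicle. None of these was called.

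In peroxisomal beta-oxidation, 5 of 10 tested genes were higher and 5 lower, among them the fatty acid transporter Abcd3 (log2 fold change -0.43), the multifunctional enzyme Hsd17b4 (0.05) and the thiolase Acaa1a (0.24). Of 20 other PPAR-responsive genes only 9 were tested, 6 higher and 3 lower. Ucp2, a mitochondrial carrier, was the most abundant, at 52.6 ± 7.74 CPM with bexarotene and 49.8 ± 10.6 CPM with vehicle (SD, n = 4 each, log2 fold change 0.07). Fabp5, a fatty acid binding protein of skin (-0.65), and Lpl, the lipase that Angptl4 inhibits (-0.63), were lower in the fit, and the fatty acid transporter Slc27a1 was higher (0.51), all without passing the test. The classical liver targets Fabp1, Cyp4a10 and Cyp4a14 had 0 counts in all 8 libraries.

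Among the receptors, Rxrb was at 5.43 ± 1.44 CPM with bexarotene and 3.73 ± 0.314 CPM with vehicle (SD, n = 4 each, log2 fold change 0.49; edgeR, adjusted p = 0.976). Rxra was at 2.68 ± 0.780 CPM with bexarotene and 3.72 ± 2.41 CPM with vehicle (log2 fold change -0.41), and the coactivator Ppargc1b at 3.34 ± 0.646 CPM with bexarotene and 3.84 ± 0.765 CPM with vehicle. Ppara had 4 counts in bexarotene mice and 2 in vehicle mice, and Pparg had 13 counts in bexarotene mice and 38 in vehicle mice. Both fell below the filter, and so did Rxrg, with 0 counts in bexarotene mice and 2 in vehicle mice. Of the 8 receptors and coactivators, 5 were tested, 2 higher and 3 lower.

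Around Pdk4, all 5 other pyruvate dehydrogenase kinases and phosphatases were tested, 4 higher and 1 lower. Pdk1, which is induced by low oxygen, was at 8.18 ± 1.93 CPM with bexarotene and 6.47 ± 0.407 CPM with vehicle (SD, n = 4 each, log2 fold change 0.30), and Pdk2 at 0.710 ± 0.485 CPM with bexarotene and 0.455 ± 0.195 CPM with vehicle (log2 fold change 0.92; edgeR, adjusted p = 0.976). The phosphatase Pdp2 had a log2 fold change of 0.03. Of the 5 genes of the pyruvate dehydrogenase complex, 2 were higher and 3 lower, with log2 fold changes of 0.32 for Dlat, 0.38 for Pdhx, -0.12 for Pdha1 and -0.17 for Dld.

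Around Plin2, 8 of 10 genes of perilipins and droplet lipolysis were tested, 4 higher and 4 lower. Plin3 had a log2 fold change of 0.20, the triglyceride lipase Pnpla2 of -0.0062 and its activator Abhd5 of -0.43. Plin5 had 0 counts in all libraries. Around Angptl4, only Lmf1 (0.16) and Lipg (0.29) of 6 genes of lipoprotein lipase regulation were tested, and Angptl8 had 0 counts. Of the 7 genes of malonyl-CoA and fatty acid synthesis, 4 were higher and 3 lower. Scd2, a stearoyl-CoA desaturase, was at 105.9 ± 58.9 CPM with bexarotene and 59.5 ± 9.91 CPM with vehicle (SD, n = 4 each, log2 fold change 0.82; edgeR, adjusted p = 0.976), and Fasn, the fatty acid synthase, was at 85.7 ± 4.25 CPM with bexarotene and 70.3 ± 13.6 CPM with vehicle (0.29).

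**Figure D5:**
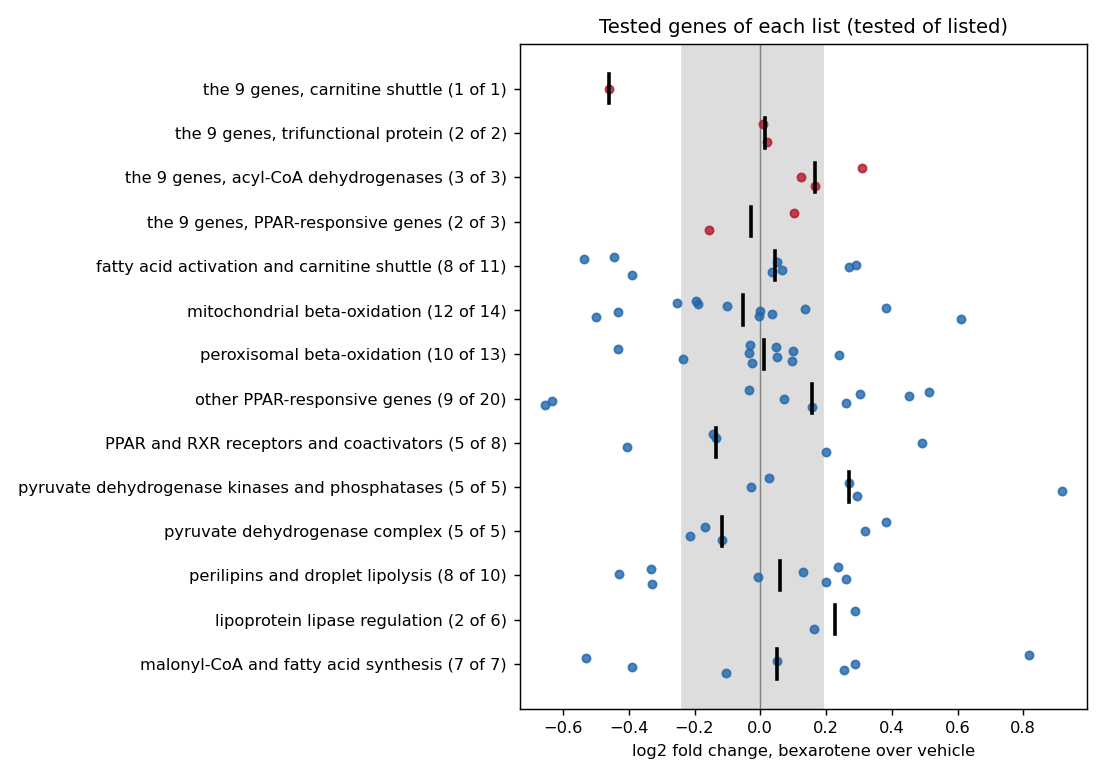
Log2 fold change of bexarotene over vehicle (edgeR) for each tested gene of the 9 (red, by role) and of 10 lists of related genes (blue), with the median of each list as a black bar and the number tested of those listed in brackets. The grey band spans the quartiles of all 11616 tested genes, -0.24 to 0.19, and most list medians lie inside it.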

How the data were processed

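The authors deposited raw counts of reads per gene for 8 libraries, made after ribosomal RNA depletion with a directional kit. Per the submitters' processing notes, reads were trimmed with Trimmomatic 0.30, checked with FastQC 0.11.9, aligned to GRCm39 with HISAT2 2.0.1 (the methods give another version) and counted with HTSeq 0.6.1. The authors tested with DESeq2. Whether counting used strand is not given in the sources used here. The mice were of strain C57BL/6J in the labels and of a related substrain in the methods.

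The deposited counts were tested in edgeR 4.0.16 under R 4.3.3 (filterByExpr with a minimum count of 10 and a minimum total of 15, TMM scaling, glmQLFTest, Benjamini-Hochberg adjustment over all 11616 tested genes), comparing 4 bexarotene with 4 vehicle mice without covariates. The test bounds each p by that of counting noise alone. Pdk4 was read from a fit without the filter. CPM are counts per 1000000 effective reads. Exact permutation tests used all 70 assignments of mice. Alternatives used DESeq2 1.42.0, limma 3.58.1 and other scalings, filters, rows and libraries. This test was checked on simulated counts with known changes. No duplicate libraries were found. Where nothing says that samples came from separate experiments, p-values measure only the spread between these mice.

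The 9 genes and the lists were chosen with earlier results of these data known. Named in each pathway list are the 2 tested genes of smallest p and the 2 of highest mean CPM, and genes below the filter are named by their counts, chosen after their values were seen. 1 gene that this rule selects is left out of the text. Likewise the closest patterns are the 3 highest Pearson r of log2 CPM (prior count 2) among genes with an average of at least 3. Positions are those of the table. Checked against GENCODE vM39, the span was identical for Angptl4 only. Promoters are from RefSeq.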

Additional observations from a re-analysis of the deposited data

Results flagged for a closer look

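The Acadm value of Bexarotene 2, 2.11 CPM, stood apart from the other 3 bexarotene mice, with a gap to the nearest of 0.873 of the range of the group, beyond Dixon's critical value for 4 samples. It was 1 of 26 groups of values examined, and chance alone puts about 5% of groups beyond that value. The level came from 5 counts, with a 95% Poisson interval of 0.686 to 4.93 CPM that takes in all the other mice.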

How the results depend on the processing

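Under 18 other settings of the fit, none of the 9 genes or of the related genes that the setting tested was called. These were 8 of the 9 and 70 to 74 related genes in most settings, but only 4 and 24 with at least 10 counts in every library, and 9 and 93 without a filter and with DESeq2. Over all genes, edgeR and limma-voom called 0 in every setting and DESeq2 called 3, with 80 to 957 genes at an unadjusted p under 0.05. Of 155 alternative log2 fold changes of the 9 genes, 24 had the other sign. When libraries were scaled by total counts alone, the median of all genes shifted to -0.66 and that of the 8 tested genes to -0.60, so that Hadha (-0.65), Hadhb (-0.77), Acadm (-0.45), Acadl (-0.59), Acadvl (-0.33) and Plin2 (-0.53) turned negative, while the median of the 8 relative to that of all genes was 0.06, against 0.09 with TMM scaling. Without a filter Hadha was at -0.017 and Hadhb at -0.022, with at least 10 counts in every library they were at -0.058 and -0.072, and with limma-voom at -0.0061 and -0.19, with Angptl4 at 0.057. DESeq2 gave -0.0078 for Hadhb. Without Bexarotene 1 and 2, Hadhb was at -0.12, Angptl4 at 0.10 and Plin2 at -0.033. Leaving out 1 library at a time gave -0.011 to 0.078 for Hadha, -0.093 to 0.18 for Hadhb and -0.067 to 0.29 for Plin2. The cause was not tested.

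With the replicate number as a block, 0 genes were called (424 at an unadjusted p under 0.05, against 428 without it), and Cpt1a had a log2 fold change of -0.59 (edgeR, adjusted p = 0.95). The deviations of same-numbered mice correlated at -0.0899 to 0.0015, so that no pairing by number showed in these values. Whether same-numbered mice were handled together is not known. Of the 13 single values per mouse, 0 passed the adjusted threshold under any alternative. With groups this small, adjustment leaves that threshold nearly out of reach, and the sign-flip test within numbers cannot go below 0.125. Depth limits Pdk4 most, with 53 counts in all: 38 with bexarotene (pooled level 0.640 CPM, 95% Poisson interval 0.453 to 0.879) and 15 with vehicle (0.126 CPM, 0.0708 to 0.209), intervals that leave out the spread between mice.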

Other observations

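Low oxygen is also known to raise Angptl4 and Plin2. Of 10 hypoxia-responsive genes, 8 were tested, 5 higher and 3 lower with bexarotene, and 0 were called by edgeR. Vegfa, an angiogenic factor, was at 6.67 ± 1.59 CPM with bexarotene and 4.91 ± 1.04 CPM with vehicle (SD, n = 4 each, log2 fold change 0.42; edgeR, adjusted p = 0.976). The glycolytic gene Ldha was at 74.7 ± 6.97 CPM with bexarotene and 65.1 ± 11.3 CPM with vehicle, and Pgk1 at 35.8 ± 6.54 CPM with bexarotene and 32.5 ± 4.75 CPM with vehicle. Ndrg1 had a log2 fold change of -0.39. The summed level of the list was 133 to 163 CPM in bexarotene mice and 108 to 146 CPM in vehicle mice.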
